A study of Rattus norvegicus with 12 samples.

Results

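Genes listed as late activity-induced, with secreted or synaptic products, were followed in the medial prefrontal cortex (mPFC) of rats after chronic prefrontal activation (CPA). They are the 10 genes Bdnf, Inhba, Vgf, Scg2, Pcsk1, Nptx1, Nptx2, Nrn1, Ptgs2 and Homer1, taken by symbol from a table of 29009 genes, in which each symbol had 1 row. All 10 were among the 19094 genes that passed edgeR's filter on low counts. RNA of 12 adult male Sprague Dawley rats was sequenced, with 1 library per rat and 4 rats per group. Rats of the control+veh group carried a virus for a fluorophore alone in the mPFC and were given vehicle. Rats of the CPA+veh and CPA+RO groups carried AAV8 with mCaMKIIa-hM3D(Gq)-mCherry there, so that pyramidal neurons made hM3Dq, a designer receptor that depolarizes neurons when its ligand CNO binds. All 3 groups drank CNO (2 mg/kg) for 10 days. In the next 7 days the CPA+RO rats received the selective oxytocin receptor agonist RO6958375 (0.07 mg/kg, once daily under the skin), and the others vehicle. Because the receptor came with a different virus, CPA and the virus cannot be told apart. The mPFC was cut out of brain slices used for recording, 8 to 16 days after the last CNO. The values thus describe sliced and recorded tissue, long after the activation itself. The effect of slicing and recording on these genes was not tested.

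When a neuron fires, calcium entering through channels and receptors activates kinases that phosphorylate the transcription factor CREB. Early genes such as Fos and Arc follow within minutes. A later wave of genes follows over hours, with products that act outside the cell or at synapses. The 10 genes were listed together as members of that wave, and the timing of each was not examined here. In the cortex the late genes are known for adjusting the strength of excitatory synapses and the inhibition that a pyramidal neuron receives.

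CREB binds the cAMP response element, whose full form reads TGACGTCA and whose half-site reads TGACG or, when read along the other strand, CGTCA. Promoter windows of RefSeq (rat build GRCr8) were at hand for 7 of the 10 genes, 12 windows in all, and both motifs were searched on both strands of the 250 bases before each start site. The full form was found in 2 genes, Vgf and Scg2. The half-site, which the full form contains, was found in 4 genes, adding Bdnf and Nptx2. The sequences are shown because this element is the textbook link between firing and these genes. They are written 5′ to 3′ along the strand of the gene, with the motif in capitals.
Vgf (chr12:25277063-25277150, minus strand): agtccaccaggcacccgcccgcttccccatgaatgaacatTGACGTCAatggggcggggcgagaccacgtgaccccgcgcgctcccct
Scg2 (chr9:88256942-88257029, minus strand): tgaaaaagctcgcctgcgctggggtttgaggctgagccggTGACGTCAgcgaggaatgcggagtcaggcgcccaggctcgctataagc
Bdnf (chr3:116637783-116637857, plus strand): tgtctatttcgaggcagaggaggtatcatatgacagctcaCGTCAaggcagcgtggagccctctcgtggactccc
Nptx2 (chr12:15162091-15162175, minus strand): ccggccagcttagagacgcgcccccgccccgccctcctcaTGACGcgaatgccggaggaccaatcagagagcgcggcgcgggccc

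The full motif lies 90 to 83 bases before the start of Vgf and 123 to 116 bases before that of Scg2. In Bdnf, which has several start sites, the half-site lies 35 to 31 bases before 1 of them, and in Nptx2 it lies 90 to 86 bases before the start. Over the same 250 bases the full motif occurred in 1.78% of 27457 genes and the half-site in 19.96%. A match of letters is a description of these windows and not a binding site.

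Levels were set against each other per length of gene, as RPKM (reads scaled by the length of the gene and the size of the library) averaged over the 12 rats. Nptx1 was the most abundant of the 10 at 128 RPKM, with rats from 111 to 148. Scg2 followed at 78.1, Nrn1 at 66.9 and Vgf at 48.6 RPKM, where the range of Nrn1 over the rats overlapped those of Scg2 and Vgf. Nptx2 (31.5 RPKM), Homer1 (18.2) and Ptgs2 (16.5) came next, of which the ranges of Homer1 and Ptgs2 overlapped. Pcsk1 was at 10.6, Bdnf at 4.67 and Inhba at 0.692 RPKM, each with a range apart from those above it. Nptx1 thus stood above 97.2% of the genes tested and Inhba above 28.7%. Between groups the levels are given as CPM, counts scaled to a common library size by TMM, with the mean ± SD of 4 rats.

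None of the 10 genes passed the test in CPA+veh against control+veh, the comparison that asks what CPA left behind (edgeR's quasi-likelihood test, Benjamini-Hochberg adjusted p under 0.05 over 19094 genes), where 22 genes or 0.115% of all those tested did. The nearest was Nrn1, higher by 22.8% in CPA+veh, and it was the only 1 of the 10 with an unadjusted p under 0.05 (9.94% of all genes) or with groups that did not overlap (4.62% of all genes). By DESeq2 and limma-voom 0 of the 10 passed as well, again with 1 at an unadjusted p under 0.05. Against control+veh, 3 of the 10 log2 fold changes lay above 0 and 7 below, with a median of -0.12, beside 51.9% above 0 and a median of 0.01 over all genes. That median depended on single rats: it was 0.00, with 5 genes above 0, when control+veh replicate 4 was left out, and -0.07 when CPA+veh replicate 2 was.

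**Figure D1:**
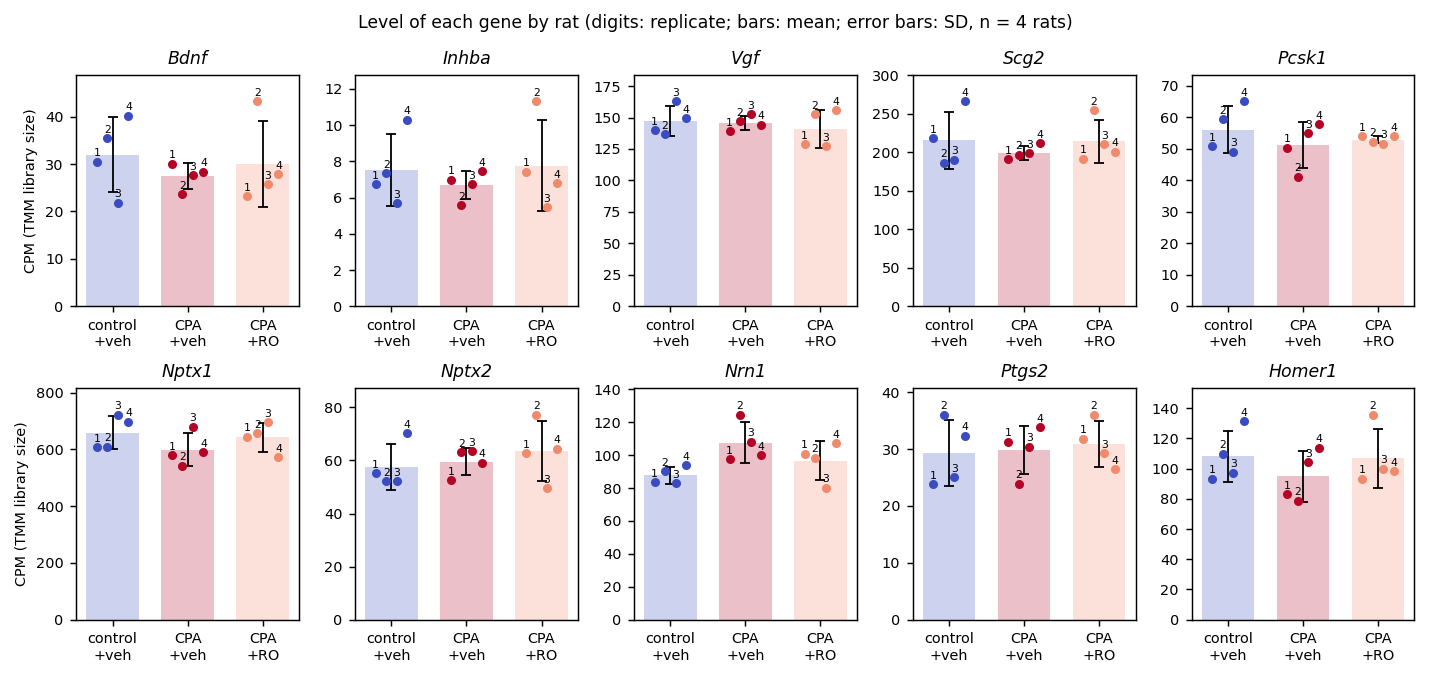
Level of each of the 10 genes in CPM (y axis, from 0) in the 4 rats of each group (x axis), with points numbered by replicate, bars for the mean and error bars for the SD. The groups overlap in all genes except Nrn1 in CPA+veh (97.4 to 125 CPM) against control+veh (82.9 to 93.9 CPM).

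Bdnf and Inhba encode secreted growth factors. Bdnf, a neurotrophin that acts through the receptor TrkB, was at 30.5, 35.5, 21.8 and 40.2 CPM in control+veh replicates 1 to 4, at 30.1, 23.6, 27.6 and 28.3 CPM in the CPA+veh rats, and at 23.2, 43.2, 25.7 and 27.9 CPM in CPA+RO. The groups overlapped, and the CPA+veh rats lay within the span of the control rats. The log2 fold change of CPA+veh over control+veh was -0.22 (standard error 0.19, 95% interval -0.63 to 0.19, edgeR adjusted p = 0.716), and it was -0.10 without control+veh replicate 4 and -0.37 without control+veh replicate 3. The SD was 2.73 CPM in CPA+veh, against 7.84 in control+veh and 9.02 in CPA+RO, a difference in spread that was not tested.

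Inhba, the subunit that forms activin A, was the least abundant of the 10. It was at 6.74, 7.33, 5.70 and 10.3 CPM in the control+veh rats, at 6.99, 5.59, 6.74 and 7.45 CPM in the CPA+veh rats, and at 7.42, 11.3, 5.47 and 6.79 CPM in CPA+RO. As for Bdnf, control+veh replicate 4 and CPA+RO replicate 2 were the highest of all rats. The log2 fold change of CPA+veh over control+veh was -0.17 (standard error 0.21, 95% interval -0.62 to 0.28, edgeR adjusted p = 0.809), and without control+veh replicate 4 it was 0.02. Leaving out CPA+veh replicate 2 gave -0.09 and leaving out control+veh replicate 3 gave -0.28.

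Vgf, Scg2 and Pcsk1 belong to the dense-core vesicles from which neurons release peptides. Vgf, the precursor of several neuropeptides, varied least among rats, by 1.28-fold between the highest and the lowest. It was at 147 ± 11.8 CPM in the control+veh rats, 146 ± 5.73 in the CPA+veh rats and 141 ± 15.2 in CPA+RO. The log2 fold change of CPA+veh over control+veh was -0.01, with a 95% interval of -0.18 to 0.15, the narrowest of the 10. Scg2, secretogranin II, a granin that is cut into secretoneurin, was at 218, 186, 190.4 and 266 CPM in the control+veh rats, at 191, 196, 199 and 212 CPM in the CPA+veh rats, and at 191, 255, 210.1 and 201 CPM in CPA+RO. The groups overlapped, and the highest values were again those of control+veh replicate 4 and CPA+RO replicate 2. Its log2 fold change of CPA+veh over control+veh was -0.11 (95% interval -0.34 to 0.12), 0.00 without control+veh replicate 4 and -0.18 without control+veh replicate 2. Pcsk1, a convertase that cuts such precursors, was at 56.1 ± 7.51 CPM in the control+veh rats, 51.1 ± 7.31 in the CPA+veh rats and 52.9 ± 1.24 in CPA+RO. The lowest rat was CPA+veh replicate 2 at 41.1 CPM. Its log2 fold change of CPA+veh over control+veh was -0.13, but -0.04 without that rat. Leaving out control+veh replicate 4 gave -0.06, and leaving out CPA+veh replicate 4 gave -0.20.

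Nptx1 and Nptx2 encode neuronal pentraxins, secreted proteins that gather AMPA receptors at synapses. Nptx1 was at 608, 610.1, 723 and 697 CPM in the control+veh rats, at 580.4, 543, 679.9 and 590.0 CPM in the CPA+veh rats, and at 645, 657, 697 and 573 CPM in CPA+RO. In CPA+veh 3 of the 4 rats lay below every control rat, while replicate 3 lay within the control range. The log2 fold change of CPA+veh over control+veh was -0.14 (standard error 0.08, 95% interval -0.32 to 0.03, edgeR adjusted p = 0.573), and it ran from -0.21 without CPA+veh replicate 3 to -0.10 without control+veh replicate 3. Nptx2 was at 57.4 ± 8.68 CPM in the control+veh rats, 59.6 ± 5.09 in the CPA+veh rats and 63.5 ± 11.4 in CPA+RO. Its log2 fold change of CPA+veh over control+veh was 0.05 (95% interval -0.21 to 0.32), and with single rats left out it ran from 0.01 without control+veh replicate 2 to 0.16 without control+veh replicate 4.

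Nrn1, neuritin, a small protein tied to the membrane by a GPI anchor that promotes the growth of neurites and synapses, was the gene nearest to a difference. It was at 83.5, 90.4, 82.9 and 93.9 CPM in the control+veh rats, at 97.4, 125, 108 and 100.1 CPM in the CPA+veh rats, and at 101, 98.4, 80.1 and 107 CPM in CPA+RO. Every CPA+veh rat lay above every control rat, and 3 of the 4 CPA+RO rats did too, while CPA+RO replicate 3 was the lowest of all 12. The means were 87.7 ± 5.38, 108 ± 12.3 and 96.7 ± 11.7 CPM. The log2 fold change of CPA+veh over control+veh was 0.30 (standard error 0.09, 95% interval 0.10 to 0.50, edgeR adjusted p = 0.329), placing Nrn1 at rank 371 of the 19094 genes by p. It stayed above 0 without each library in turn, at 0.22 to 0.34.

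Markers of other cells were measured in the same rats. The 9 markers of excitatory neurons summed to 4309 to 4798 CPM in the control+veh rats, 4695 to 5303 in the CPA+veh rats and 4710 to 5177 in CPA+RO, and none was at 0. In CPA+veh against control+veh 6 of the 9 lay above 0 and 3 below, down to -0.31 for Slc17a6, with a median of 0.12, or 0.05 without CPA+veh replicate 3. Of the 9, 4 had an unadjusted p under 0.05 there, all higher (Nrgn 0.31, Tbr1 0.26, Camk2a 0.21 and Slc17a7 0.13 as log2 fold changes), and 0 passed the adjusted test. Camk2a was at 0.10 without CPA+veh replicate 1. In bulk tissue, fewer cells of a type and less RNA per cell cannot be told apart. All 10 oligodendrocyte markers lay above 0, with a median log2 fold change of 0.26 and sums of 2565 to 2945 CPM in control+veh against 2808 to 5041 in CPA+veh, and all 8 endothelial markers in the table lay below 0, with a median of -0.40 and sums of 132 to 170 CPM against 93.0 to 149. An unadjusted p under 0.05 was found for 7 of the 10 oligodendrocyte markers, all above 0, and for 4 of the 8 endothelial markers. Over all genes tested, 9.94% had such a p in CPA+veh against control+veh, and 51.9% lay above 0. The 8 astrocyte markers lay above 0 too (median 0.17, with S100b at 0.32, or 0.18 without CPA+veh replicate 1). So did 7 of 8 microglia markers (median 0.12, or 0.23 without CPA+veh replicate 4). The 9 interneuron markers had a median of 0.04, with 6 above 0 and 3 below. For the 7 striatal neuron markers it was 0.08, with 4 above 0 and 3 below. At an unadjusted p under 0.05 were 2 interneuron markers, both higher (Sst 0.39 and Slc32a1 0.21), and 1 striatal marker, Rgs9 at -0.40. Of 6 choroid plexus markers 3 were tested, 1 above 0 and 2 below, with a median of -0.30 and sums of 2.29 to 3.13 CPM in control+veh, 2.72 to 3.21 in CPA+veh and 2.47 to 3.91 in CPA+RO. The 1 above was Ttr, transthyretin, at 1.76 (CPA+veh rats 1.18 ± 0.254 CPM, control+veh rats 0.349 ± 0.0844; edgeR adjusted p = 0.0571) and at 1.58 in CPA+RO against control+veh (1.04 ± 0.410 CPM; edgeR adjusted p = 0.103). Ttr passed in CPA+veh against control+veh by DESeq2 (adjusted p = 0.000109) and in 3 other alternatives of 26. None of the markers tested was at 0 in a group. CPA+veh replicates 1 and 2 stood farthest from control+veh in the oligodendrocyte and endothelial lists. Leaving out CPA+veh replicate 1 gave medians of 0.15 for oligodendrocyte, 0.03 for astrocyte and 0.03 for microglia markers, and leaving out replicate 2 of that group gave -0.25 for endothelial markers. Without both rats they were 0.05, -0.00 and -0.06 for those glial lists, -0.04 for endothelial markers and 0.14 for excitatory markers. Without both, the log2 fold change of Nrn1 was 0.25 and the median of the 10 genes 0.01, with 6 above 0. This setting was chosen after seeing the data, and the part of these markers in the result was not tested.

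Ptgs2 and Homer1 act inside the neuron. Ptgs2, cyclooxygenase 2, which makes prostaglandins, was at 29.3 ± 5.84 CPM in the control+veh rats, 29.9 ± 4.22 in the CPA+veh rats and 30.9 ± 4.08 in CPA+RO. Its log2 fold change of CPA+veh over control+veh was 0.03 (95% interval -0.27 to 0.33). Homer1, a scaffold of the postsynaptic density that holds metabotropic glutamate receptors, has a long form and a short form made upon activity, and the table holds both in 1 row. It was at 93.4, 110.0, 97.4 and 131 CPM in the control+veh rats, at 82.9, 78.7, 104 and 114 CPM in the CPA+veh rats, and at 93.2, 136, 100.1 and 98.2 CPM in CPA+RO. The groups overlapped, with CPA+veh replicates 1 and 2 as the lowest of the 12 rats. The log2 fold change of CPA+veh over control+veh was -0.19 (standard error 0.14, 95% interval -0.49 to 0.12, edgeR adjusted p = 0.680). Leaving out CPA+veh replicate 2 gave -0.11, control+veh replicate 4 -0.08, CPA+veh replicate 4 -0.29, and CPA+veh replicates 1 and 2 together 0.01.

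**Figure D2:**
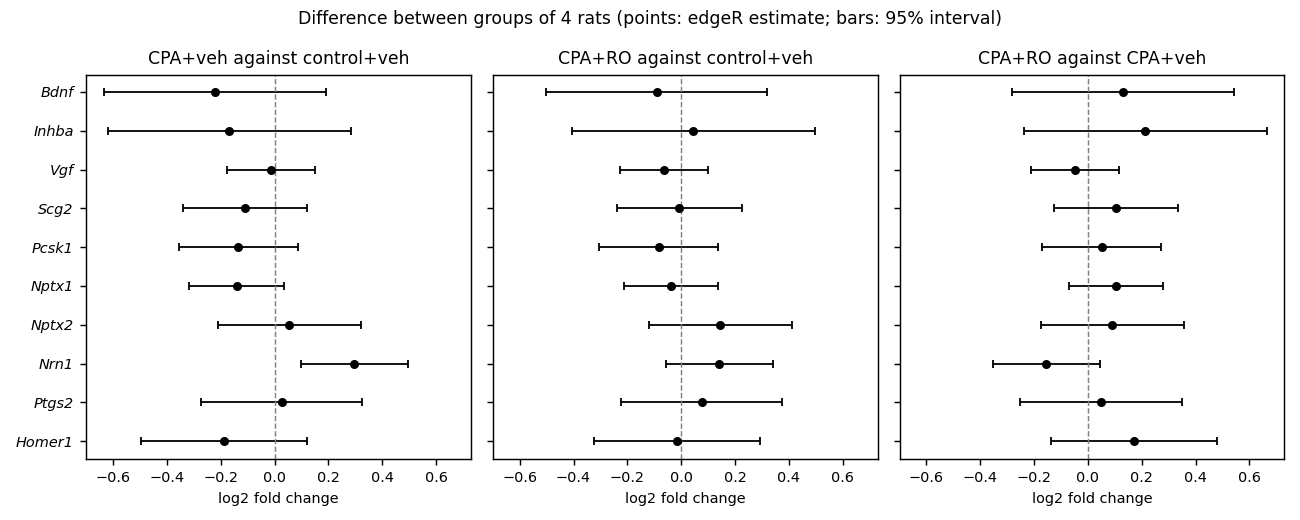
Log2 fold change of each gene (x axis) in the 3 comparisons, with points for edgeR's estimate and bars for the 95% interval, from groups of 4 rats. The bar of Nrn1 in CPA+veh against control+veh (0.10 to 0.50) is the only one that leaves out 0.

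Whether rats treated with the agonist after CPA differed from controls was asked next. In CPA+RO against control+veh 0 of the 10 genes passed the test, beside 21 genes or 0.11% of all tested, and 0 had an unadjusted p under 0.05 (5.75% of all genes) or groups that did not overlap (5.57%). DESeq2 and limma-voom also passed 0 of the 10. Log2 fold changes lay above 0 for 4 genes and below for 6, with a median of -0.01 beside 0.00 over all genes, of which 50% lay above 0. Without control+veh replicate 4 the median was 0.10, with 7 above 0, and without CPA+RO replicate 2 it was -0.09, with 2 above 0. Without CPA+RO replicates 1, 3 and 4 in turn it was 0.04, 0.01 and 0.02, and without control+veh replicates 1, 2 and 3 it was -0.04, -0.02 and -0.03. The values at the ends were 0.15 for Nptx2 (95% interval -0.12 to 0.41) and -0.09 for Bdnf (95% interval -0.50 to 0.32), and Nrn1 was at 0.14 (95% interval -0.06 to 0.34, edgeR adjusted p = 0.881). Leaving out single rats moved Nptx2 from 0.04 (CPA+RO replicate 2) to 0.26 (control+veh replicate 4) and Bdnf from -0.32 (CPA+RO replicate 2) to 0.04 (control+veh replicate 4). Without CPA+RO replicate 3 the log2 fold change of Nrn1 was 0.22 and 2 of the 10 genes had an unadjusted p under 0.05, while without CPA+RO replicate 4 Nrn1 was at 0.09 and 0 of the 10 had such a p.

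The agonist was compared with vehicle within CPA rats. In CPA+RO against CPA+veh 0 of the 10 genes passed, and 0 of all 19094 did (0%), while 842 genes (4.41%) had an unadjusted p under 0.05, none of them among the 10. DESeq2 and limma-voom also passed 0 genes, and groups did not overlap in 0 of the 10, against 1.95% of all genes. Log2 fold changes lay above 0 for 8 genes and below for 2, with a median of 0.10 beside -0.01 over all genes, of which 48% lay above 0. Without CPA+RO replicate 2, however, 4 lay above 0 and the median was -0.02, and without CPA+veh replicate 2 it was 6 and 0.06. Inhba had the value farthest from 0, at 0.21 (95% interval -0.24 to 0.67), and was at -0.03 without CPA+RO replicate 2. Nrn1, lower in CPA+RO, was at -0.15 (standard error 0.09, 95% interval -0.35 to 0.04, edgeR adjusted p = 0.876). It ran from -0.21 when CPA+RO replicate 4 was left out to -0.07 when CPA+RO replicate 3 was, and leaving out CPA+veh replicate 2 gave -0.08. Markers of other cells differed here too. All 10 oligodendrocyte markers lay below 0, with a median of -0.25, or -0.12 without CPA+veh replicate 1. Of the 8 endothelial markers 7 lay above 0 and 1 below, with a median of 0.20, or 0.12 without CPA+veh replicate 2. Astrocyte and microglia markers each had 2 above 0 and 6 below. The part of these markers in the values of the 10 genes was not tested. The 3 comparisons share groups, so that their values are not independent of each other.

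**Figure D3:**
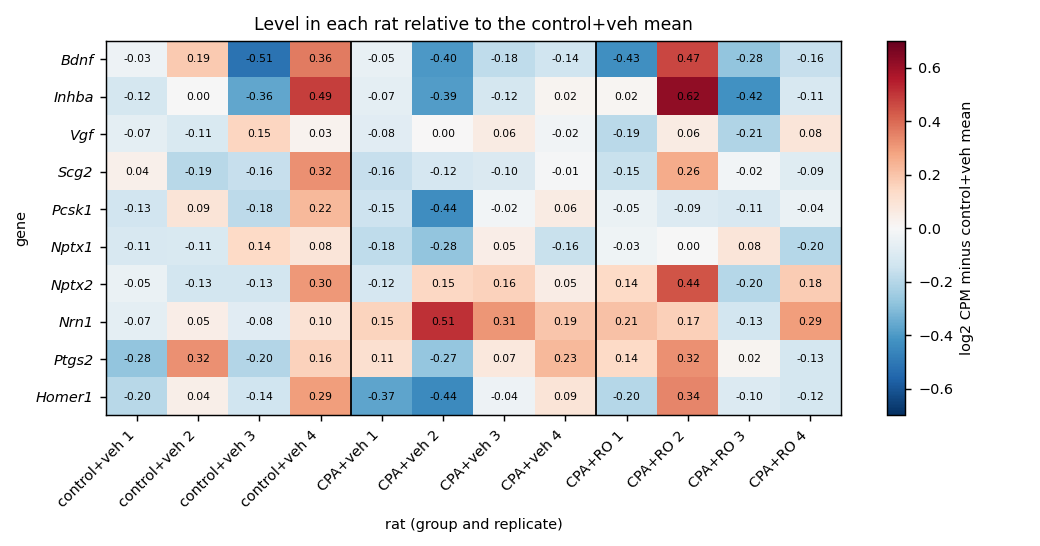
Level of each gene (rows) in each rat (columns) as log2 CPM minus the mean of the 4 control+veh rats, red above and blue below, with black lines between groups. Control+veh replicate 4 is above the control mean in all 10 genes and CPA+RO replicate 2 in 8 of 10, with Inhba at 0.62 in the latter.

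Differences between rats of 1 group were as large as those between groups. Control+veh replicate 4 lay above the control mean in all 10 genes, with a median of 0.26 on the log2 scale, and was the highest of its group in 7. CPA+RO replicate 2 lay above the control mean in 8 genes, with a median of 0.29, and was the highest of all 12 rats in 5. CPA+RO replicate 3 was the lowest of all 12 in 4 genes. CPA+veh replicate 2 was the lowest of all 12 in 3 genes (Pcsk1, Nptx1 and Homer1) and yet the highest in Nrn1. In that library the deviation of genes from their mean level fell with gene length (Spearman correlation across genes -0.42), against -0.21 in CPA+veh replicate 1 and -0.22 to 0.22 in the other libraries. Pcsk1, Nptx1 and Homer1 are 5049, 4952 and 5676 bases long and Nrn1, the shortest of the 10, is 1455. Ptgs2, the next shortest at 1816 bases, went the other way from Nrn1 in CPA+veh replicate 2. It was at -0.27 from the control mean on the log2 scale there, the lowest of its group. With a correction for gene length the log2 fold change of Nrn1 was 0.24 in CPA+veh against control+veh and -0.09 in CPA+RO against CPA+veh, and the part of length in these values was not otherwise tested. The range between the highest and the lowest rat ran from 1.28-fold for Vgf to 2.07-fold for Inhba. The labels tie no library to a day or a cohort, so these rats could not be set against the 2 cohorts of the study.

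How the genes moved together was measured over the 12 rats after the group means had been removed. Of the 45 pairs, 39 had a positive Pearson's r, with a median of 0.29, and 15 had an unadjusted p under 0.05 by an exact permutation test, two-sided, over the 13824 reorderings within groups. After Benjamini-Hochberg adjustment over the 45 pairs 0 passed (lowest adjusted p = 0.108). The same counts were not made for pairs of other genes, so whether they are particular to the listed genes was not tested. Bdnf and Inhba had the highest r, at 0.86 (exact permutation p = 0.00492, adjusted p = 0.108), with a Spearman's rho of 0.85 (exact permutation p = 0.00376), and r was 0.75 without the 2 rats farthest from the median of Bdnf. Inhba with Homer1 (r = 0.79) and Inhba with Nptx2 (r = 0.78) came next, the latter with a rho of 0.50 only. Without the 2 rats farthest for Inhba the former was 0.51, and without the 2 farthest for Nptx2 the latter was 0.59. Without the 2 rats farthest for Scg2, its r fell from 0.74 to 0.18 with Inhba and from 0.71 to 0.18 with Nptx2. Some pairs rose, as Vgf with Nptx2 from 0.54 to 0.84 without the 2 rats farthest for Vgf. Homer1 had the highest median r with the other genes, at 0.71. Nrn1 (median r 0.08), Nptx1 (0.13) and Vgf (0.21) had the lowest medians, and Nptx1 with Nrn1 had the lowest r of all pairs, at -0.43 (exact permutation p = 0.194, adjusted p = 0.437). Vgf and Scg2, the genes with the full motif, had an r of 0.25, and of 0.70 without the 2 rats farthest for Vgf.

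**Figure D4:**
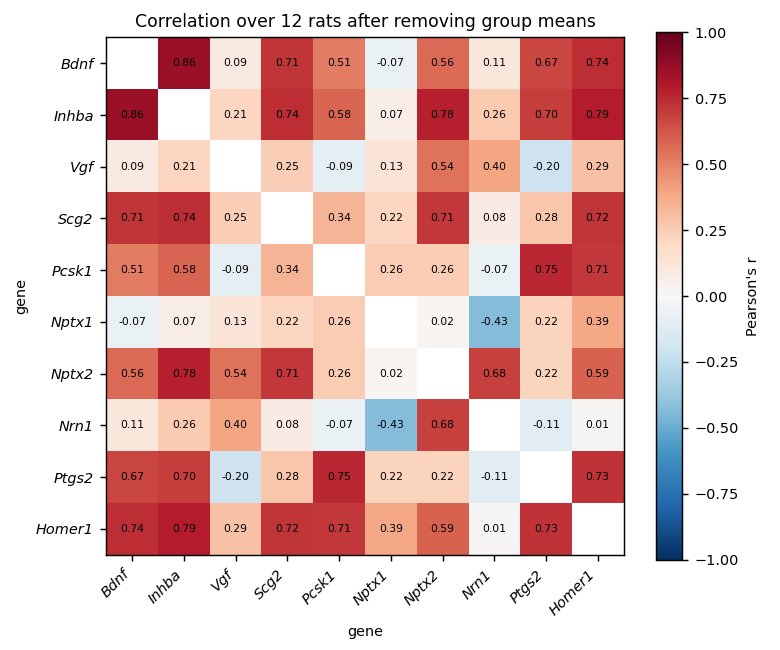
Pearson's r of each pair of genes over 12 rats, on log2 CPM after the group means were removed, red for positive and blue for negative. Bdnf, Inhba, Pcsk1, Scg2, Ptgs2, Homer1 and Nptx2 hold most of the high values, up to 0.86 for Bdnf with Inhba. Not all pairs among them are high, as Scg2 with Ptgs2 (0.28) and Nptx2 with Ptgs2 (0.22). The lowest r of all pairs is -0.43 for Nptx1 with Nrn1. The values of Scg2 with Inhba and with Nptx2 fell to 0.18 without the 2 rats farthest from the median of Scg2.

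Likeness to the mean of the 10 over the 12 rats was measured after the group means had been removed. The genes outside the list with the highest r were Edrf1 (r = 0.96), Mapk4 (0.95), Foxk2 (0.95), Uvrag (0.95) and Grasp (0.94). They came from 12983 genes with a mean of at least 1 CPM, with provisional symbols and small RNA genes left out. These r values are the highest of many and describe the rats, which share libraries and depth.

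Around the 10 genes, the pathways they belong to were counted in CPA+veh against control+veh, and 0 genes of any list passed the adjusted test in any of the 3 comparisons. Over all genes tested, 9.94% had an unadjusted p under 0.05 in CPA+veh against control+veh, and 51.9% lay above 0. The lists around the 10 genes include those genes themselves. Of 18 early activity-induced genes 11 lay above 0 and 7 below, with a median log2 fold change of 0.04. Arc, which acts in the removal of AMPA receptors, was at 0.35 (197 ± 22.8 CPM in CPA+veh against 155 ± 19.9) and Nr4a3, a nuclear receptor, at -0.35 (87.7 ± 19.0 against 112 ± 21.1), both with an unadjusted p under 0.05. Nr4a3 was at -0.20 without CPA+veh replicate 2. Of the 24 genes of the path from calcium to CREB, 3 had such a p above 0 and 3 below, among them the kinase genes Camk2g at 0.17 and Camkk2 at 0.27 and the transcription factor gene Mef2a at -0.19.

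Of 13 neurotrophins and receptors around Bdnf, 1 had an unadjusted p under 0.05, the sorting receptor gene Sorcs3, at -0.34 (44.7 ± 3.82 CPM in CPA+veh against 56.6 ± 6.01; edgeR adjusted p = 0.271). Among the 16 granins and processing proteins around Vgf, Scg2 and Pcsk1, Chgb, a granin, was at -0.19 (449 ± 16.3 against 513 ± 25.1 CPM; edgeR adjusted p = 0.310). Pcsk1n, whose product inhibits the Pcsk1 convertase, was at 1.94 (29.2 ± 23.8 against 7.60 ± 4.39 CPM; edgeR adjusted p = 0.310), with an SD in CPA+veh nearly as large as the mean, and was at 1.20 without CPA+veh replicate 3. Of 11 genes of GPI-linked synaptic proteins around Nrn1, 3 had an unadjusted p under 0.05, all above 0. Thy1, an abundant surface protein of neurons, was at 0.23 (968 ± 24.0 against 826 ± 18.0 CPM; edgeR adjusted p = 0.0916) and passed by DESeq2 (adjusted p = 0.000489), Lynx1, which modulates nicotinic receptors, was at 0.20, and Nrn1 was the third.

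Of the 9 pentraxins and partners, 1 had an unadjusted p under 0.05, the protease gene Mmp9, at 0.41 (1.98 ± 0.135 against 1.49 ± 0.126 CPM). Among 17 genes of activin and follistatin signalling it was 1, the receptor gene Acvr2a, at -0.18 (-0.11 without CPA+veh replicate 1), with 12 above 0 and 5 below. Among 16 genes of prostaglandin synthesis and receptors it was 1 again, Ptges3, a co-chaperone with prostaglandin E synthase activity, at -0.16, with 4 above 0 and 12 below. Of the 14 Homer proteins and partners, the scaffold genes Shank1 (0.27) and Shank3 (0.20) lay above 0 and the calcium channel gene Ryr1 (-0.31) below, each with an unadjusted p under 0.05.

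Total counts per library were 64993543 to 79006972, and within groups Pearson's r of log2 raw counts between libraries was 0.984 to 0.989 across genes. Chrm3, the rat gene related to hM3Dq, was at 53.1 to 64.9 CPM in the control+veh rats, 71.1 to 292 in the CPA+veh rats and 101 to 247 in CPA+RO, so control+veh lay apart from both CPA groups, which overlapped each other, although rat and designer transcripts cannot be told apart. The labels give brain as the tissue, and Slc17a7, a defining gene of cortical excitatory neurons, was at 1253 ± 53.0 CPM in control+veh.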

How the data were processed

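The mPFC of 12 rats was profiled with the TruSeq Stranded mRNA kit on a HiSeq4000. The authors deposited raw counts per gene and RPKM made from them. Per the labels, bcl2fastq, FastQC, STAR and SAMtools were used with builds rn6 and Rnor_6.0. The counting rule is not given in the sources used here, so reads of overlapping antisense genes cannot be told apart. Of counts from 10 to 99, 87.5% were even, so both mates of a pair appear to be counted and the depth in fragments is lower than the totals.

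Counts were scaled by TMM and tested over all 12 libraries in 1 fit with edgeR 4.0.16 (filterByExpr by group, quasi-likelihood test, group as the only term) in R 4.3.3, with Benjamini-Hochberg adjustment over 19094 genes. Log2 CPM used a prior count of 2. On simulated counts for CPA+veh against control+veh (18829 genes), a log2 change of 1 was recovered for 80 of 100 genes and one of 0.5 for 42 of 100, with 8 false calls. Changes smaller than 0.5 were not simulated, whereas those of the 10 genes in that comparison ran from -0.22 to 0.30. How often changes of that size would be recovered was not tested. The genes, lists and tests were chosen with earlier results of these data known. Genes named from a list had an unadjusted p under 0.05 in CPA+veh against control+veh, at most 4 per list by smallest p. The exception was Slc17a6, given as the lowest of the excitatory neuron markers, and not every gene under that p was named. Results were recomputed with other scalings (RLE, upper quartile), with DESeq2 1.42.0 and limma-voom (limma 3.58.1), without the filter on low counts or with 1 CPM required in 4 libraries, from the pair of groups alone, with the replicate number as a block, with a gene length correction (also together with the block), on log2 RPKM (pseudocount 0.1 or 1), and without each library. A setting without both CPA+veh replicates 1 and 2 was added after seeing the data.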

Additional observations from a re-analysis of the deposited data

Results flagged for a closer look

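Within groups of 4 rats, 2 of 30 sets of values held a rat far from the others (Dixon's test at the 95% level), and chance gives about 1 in 20. For Nptx2, control+veh replicate 4 was highest at 70.2 CPM, with the others at 52.1 to 55.1 and a ratio of gap to range of 0.836. For Homer1, CPA+RO replicate 2 was highest at 136 CPM, with the others at 93.2 to 100.1 and a ratio of 0.840. Both rats were also high in most of the other genes of the group. No cause was tested.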

How the results depend on the processing

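In none of 26 alternatives did any of the 10 genes pass in any comparison (lowest adjusted p = 0.147, Nrn1 in CPA+veh against control+veh without CPA+veh replicate 4). Of the 30 log2 fold changes of the genes, 12 kept their sign throughout and 18 changed it at least once. The number of genes called in CPA+veh against control+veh was 22, but 112 with DESeq2, 12 where 1 CPM was required in 4 libraries and 14 without CPA+veh replicates 1 and 2 together. In CPA+RO against control+veh it was 21, but 83 with DESeq2, 48 with no filter on low counts, 13 with that CPM filter and 32 with only the 2 groups compared, which also gave 1 gene in CPA+RO against CPA+veh. The causes were not tested.

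Some signs changed with the setting. In CPA+RO against control+veh Scg2 was at 0.0010 by limma-voom and 0.00028 with the length correction and replicate block, and Inhba at -0.0065 with log2(RPKM + 0.1), filtered or not. In CPA+veh against control+veh Ptgs2 was at -0.011 with the length correction. Without CPA+veh replicates 1 and 2 together, Vgf was at 0.013, Pcsk1 at 0.0096, Homer1 at 0.014 and S100b, an astrocyte gene, at -0.015 in that comparison, and Pcsk1 at -0.092, Ptgs2 at -0.056 and Homer1 at -0.029 in CPA+RO against CPA+veh.

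With each library left out in turn, values in CPA+veh against control+veh ran from -0.053 to 0.036 for Vgf, -0.18 to 0.0042 for Scg2, -0.28 to 0.018 for Inhba and -0.065 to 0.14 for Ptgs2. In CPA+RO against control+veh they ran from -0.32 to 0.037 for Bdnf, -0.10 to 0.11 for Scg2, -0.078 to 0.014 for Nptx1, -0.19 to 0.23 for Inhba, -0.013 to 0.19 for Ptgs2 and -0.15 to 0.091 for Homer1. In CPA+RO against CPA+veh they ran from -0.099 to 0.24 for Bdnf, -0.018 to 0.19 for Nptx2, -0.028 to 0.35 for Inhba, -0.039 to 0.12 for Pcsk1 and -0.043 to 0.12 for Ptgs2. The number of pairs of genes past the adjusted threshold ran from 0 to 1, the 1 being Bdnf with Inhba without CPA+RO replicate 1 (r = 0.93, exact permutation, adjusted p = 0.0391).

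Same-numbered rats did not deviate together (r from -0.11 to 0.10 over 12 pairs, with 4 of 12 libraries nearest to their own number). Whether the numbers follow a day or a cohort could not be told. With the replicate block 17 genes passed in CPA+veh against control+veh, 21 in CPA+RO against control+veh and 0 in CPA+RO against CPA+veh, and Nrn1 was at 0.30 (edgeR adjusted p = 0.348).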
